A study of Mus musculus with 7 samples.

Results

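The Hox genes encode homeodomain transcription factors that lie in 4 clusters and give cells a memory of their position along the body axis. In the mouse they are named by cluster (a to d) and by paralogue group, the set of matching positions in the 4 clusters. The group number runs from the 3′ end of a cluster, used toward the head, to the 5′ end, used toward the tail. The urogenital tract of the male is patterned by the 5′ end: Hoxa10 and Hoxa11 set the identity of the duct that becomes epididymis, vas deferens and seminal vesicle, and Hoxa13, Hoxb13 and Hoxd13 take part in forming the prostate lobes and the other accessory glands. The genes examined here are all symbols made of Hox, a cluster letter and a number. Of 39 such genes in the GENCODE M21 annotation, 32 are among the 16019 genes listed in the files and form this set. The other 7 are not analysed here.

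RNA was measured in 7 prostate samples from mice with experimental autoimmune prostatitis (EAP), an inflammation of the gland brought on by immunisation. The vehicle group holds 3 samples (replicates 1, 3 and 4) from EAP mice injected into the peritoneum with the solvent methyl-β-cyclodextrin. The LIT927 group holds 4 samples (replicates 1 to 4) from EAP mice given LIT927, a compound that neutralises the chemokine CXCL12, at 25 mg/kg per day, and both groups were treated for 14 days. Every mouse thus carried the disease model, and no healthy gland was compared. The labels used here give no strain or age and do not say that each sample is a separate animal. The p-values therefore reflect how far these libraries scatter, and some of that scatter may be technical.

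Levels are given as FPKM, the fragments of a gene scaled to its length and to the depth of the library, which allows different genes to be set side by side. The libraries held 32100860 to 35292137 fragments. The make-up of the samples varied within both groups. Summed over marker lists, seminal vesicle genes came to 51017 to 563781 FPKM, prostate lobe genes to 5876 to 165927 FPKM, vas deferens and epididymis genes to 19.6 to 20193 FPKM and urothelial genes to 26.8 to 330 FPKM. The urothelial sum was 267 FPKM in vehicle replicate 3 and 330 FPKM in LIT927 replicate 3, and at most 43.7 FPKM elsewhere. The vas deferens sum was 101 and 19.6 FPKM in that same pair and at least 2000 FPKM elsewhere. All prostate lobe genes of the list were above 0 in every library. In such bulk samples, fewer cells of a type and less RNA per cell cannot be told apart.

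The 4 clusters were used unequally. The Hoxb cluster (mm10 chromosome 11, 96194316 to 96368256, plus strand) held 64.6% to 94.1% of the summed Hox FPKM of a library. The Hoxd cluster (chromosome 2, 74668310 to 74765142, plus strand) held 2.93% to 29.7%, and the Hoxa cluster (chromosome 6, 52155590 to 52260880, minus strand) 2.98% to 11.9%. The Hoxc cluster (chromosome 15, 102921103 to 103036852, plus strand) was barely detected: its 6 listed genes held 0.0103% to 0.342% of the Hox sum and 191 fragments in all 7 libraries together. A mean of at least 1 FPKM was reached by 19 of the 32 genes, and 14 of these 19 were at or above 1 FPKM in every library. The other 13 were all 6 Hoxc genes, Hoxa2, Hoxa3, Hoxa5, Hoxa6, Hoxa7, Hoxd11 and Hoxd12, none above 2.54 FPKM in any library. Of these, 9 were at 0 in at least 1 library.

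**Figure D1:**
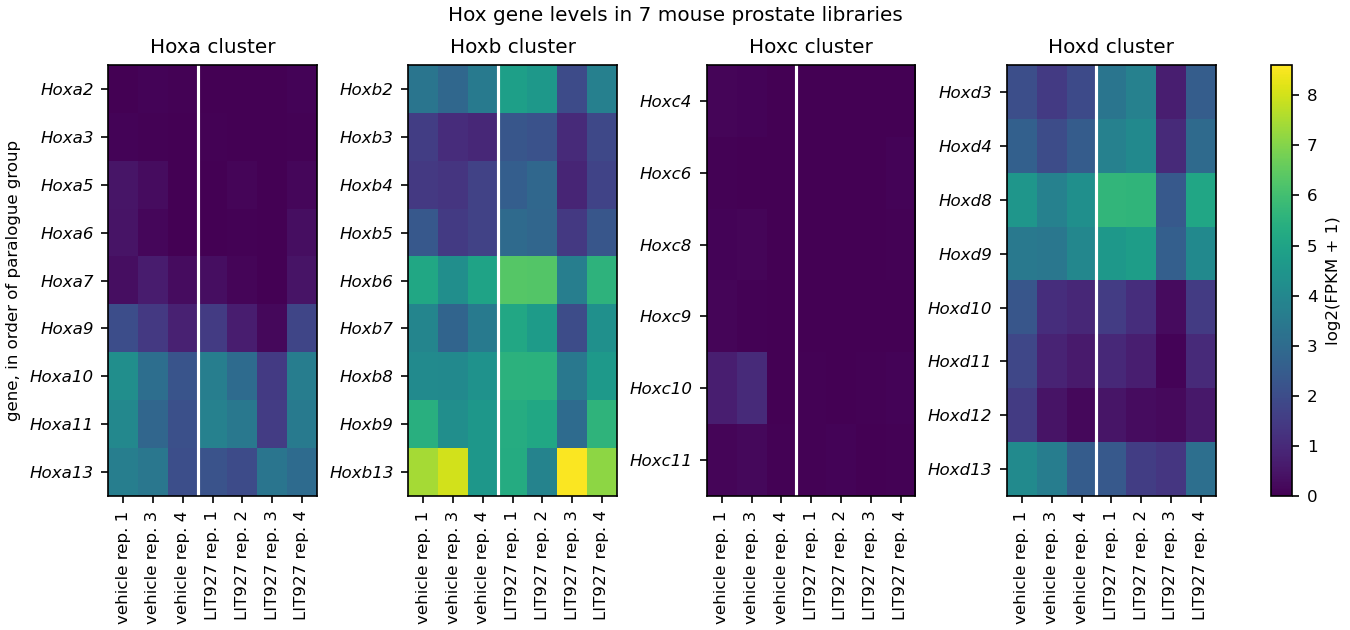
Levels of the 32 Hox genes, one panel per cluster, with genes in order of paralogue group down the side and the 3 vehicle and 4 LIT927 libraries across (colour, log2(FPKM + 1); the white line parts the groups). Hoxb13 is the brightest cell of its column in 4 libraries, and the Hoxc panel is dark. Hoxb6 to Hoxb9, Hoxd8 and Hoxd9 are bright in most libraries and darkest in LIT927 replicate 3 (Hoxd8 4.28 FPKM, Hoxd9 5.01 FPKM).

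Upstream sequence is shown for 4 genes because they stand for both parts of the code described next, Hoxa13 and Hoxd13 for the 5′ end and Hoxb8 and Hoxd8 for the middle. RefSeq windows (GRCm38.p6, the same assembly as mm10) were matched for 20 of the 32 genes, 22 windows in all, and the 250 bases before the start site are printed 5′ to 3′ on the strand of the gene. The windows are chr6:52260881-52261130 on the minus strand for Hoxa13, and on the plus strand chr2:74667975-74668224 for Hoxd13, chr11:96281655-96281904 for Hoxb8 and chr2:74704365-74704614 for Hoxd8. The RefSeq start used for Hoxd13 lies at -85 bases from its GENCODE start, and those of Hoxa13, Hoxb8 and Hoxd8 at 0. Capitals mark matches on either strand to TATAAA, the TATA box, and to CCAAT. They also mark CAATAAA, a form of the site preferred by proteins of paralogue group 13. The other form of that site, TCGTAAA, is marked too.
Hoxa13: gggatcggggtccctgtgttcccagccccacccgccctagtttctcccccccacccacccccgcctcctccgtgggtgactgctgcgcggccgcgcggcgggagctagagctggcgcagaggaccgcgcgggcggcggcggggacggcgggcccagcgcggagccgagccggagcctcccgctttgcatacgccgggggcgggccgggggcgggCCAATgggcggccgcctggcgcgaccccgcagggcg
Hoxd13: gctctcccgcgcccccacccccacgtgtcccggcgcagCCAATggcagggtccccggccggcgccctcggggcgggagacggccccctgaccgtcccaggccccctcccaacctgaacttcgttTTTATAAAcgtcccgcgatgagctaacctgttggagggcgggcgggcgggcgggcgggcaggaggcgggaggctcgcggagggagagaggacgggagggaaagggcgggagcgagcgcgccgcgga
Hoxb8: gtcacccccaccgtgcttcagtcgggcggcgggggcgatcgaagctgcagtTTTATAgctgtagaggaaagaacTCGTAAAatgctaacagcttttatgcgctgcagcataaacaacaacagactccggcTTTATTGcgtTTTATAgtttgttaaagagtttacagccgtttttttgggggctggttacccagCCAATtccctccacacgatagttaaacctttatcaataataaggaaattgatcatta
Hoxd8: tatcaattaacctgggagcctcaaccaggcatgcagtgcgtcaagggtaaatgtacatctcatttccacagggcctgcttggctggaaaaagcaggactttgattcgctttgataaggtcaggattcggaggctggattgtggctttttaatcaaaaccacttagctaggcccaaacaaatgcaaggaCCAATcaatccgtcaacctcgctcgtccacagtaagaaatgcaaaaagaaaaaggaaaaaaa
The Hoxa13 window holds 35 CG pairs and the Hoxd13 window 31, against 12 in Hoxb8 and 6 in Hoxd8. No window was matched for Hoxb13. The median over all 32851 windows was 6 and over the Hox windows 12.5. The Hoxb8 window held both group 13 sites, as TCGTAAA and as TTTATTG, the reverse complement of CAATAAA, and was the only Hox window with either. CAATAAA was matched in 4.204% of all windows and TCGTAAA in 0.478%. TATAAA was found in the windows of Hoxa10, Hoxb8, Hoxd4 and Hoxd13, and in 12.4% of all windows. In Hoxd13 its match on one strand overlaps its match on the other. CCAAT was found in 12 of 22 Hox windows and in 33.8% of all windows. These matches describe the letters only.

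Paralogue group 13 holds the most 5′ genes. Hoxb13 (chromosome 11, 96194316 to 96197447), which in the mouse marks prostate epithelium and is needed for the ventral lobe to form normally, had the highest mean of all Hox genes. It was at 172, 256 and 22.5 FPKM in vehicle replicates 1, 3 and 4, and at 38.6, 13.3, 377 and 141 FPKM in LIT927 replicates 1 to 4. The lowest and the highest library both belonged to the LIT927 group, and they differed 28.2-fold. Hoxb13 was the most abundant Hox gene in 4 of 7 libraries, vehicle replicates 1 and 3 and LIT927 replicates 3 and 4. Hoxb6 led in the other 3, where Hoxb13 had rank 2 (vehicle replicate 4), rank 5 (LIT927 replicate 1) and rank 9 (LIT927 replicate 2). The difference in log2(FPKM + 1), LIT927 minus vehicle, was -0.45 (SE 1.24; 95% interval -3.32 to 2.42; limma adjusted p = 0.998), so no difference was detected and the interval was wide. Without vehicle replicate 4 the difference was -1.51, without LIT927 replicate 3 it was -1.23, without vehicle replicate 3 it was 0.22 and without LIT927 replicate 2 it was 0.34.

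Hoxa13 (chromosome 6, 52257694 to 52260880), which with Hoxd13 shapes the caudal urogenital tract and the digits, spanned 3.99-fold. It stood at 11.7, 9.64 and 3.18 FPKM in vehicle replicates 1, 3 and 4 and at 3.58, 2.93, 9.24 and 7.03 FPKM in LIT927 replicates 1 to 4. The 3 lowest libraries were vehicle replicate 4 and LIT927 replicates 1 and 2, the same 3 as for Hoxb13. The difference was -0.41 (SE 0.49; limma adjusted p = 0.998), and the groups overlapped. Leaving out single libraries gave values from -0.90 without vehicle replicate 4 to -0.11 without vehicle replicate 1.

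Hoxd13 (chromosome 2, 74668310 to 74671599) was the member of this group with the smallest unadjusted p. It was at 16.4, 11.4 and 4.69 FPKM in vehicle replicates 1, 3 and 4 and at 4.34, 1.98, 1.54 and 7.86 FPKM in LIT927 replicates 1 to 4. LIT927 replicate 4 lay above vehicle replicate 4, so the groups overlapped, while the other 3 LIT927 libraries lay below every vehicle library. Group means were 3.93 ± 2.90 FPKM (SD, n = 4) with LIT927 and 10.8 ± 5.9 FPKM (SD, n = 3) with vehicle. The difference was -1.30 on the log2(FPKM + 1) scale (SE 0.54; 95% interval -2.56 to -0.038). It did not pass (limma unadjusted p = 0.0449, adjusted p = 0.998; exact permutation p = 0.114, two-sided, where 0.0286 is the smallest this design can give). Leaving out any single library gave differences from -1.75 to -0.95. Unlike Hoxb13 and Hoxa13, Hoxd13 was lowest in LIT927 replicate 3, and the ratio of Hoxa13 to Hoxd13 was 6.01 there against 0.678 to 1.48 in the others.

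**Figure D2:**
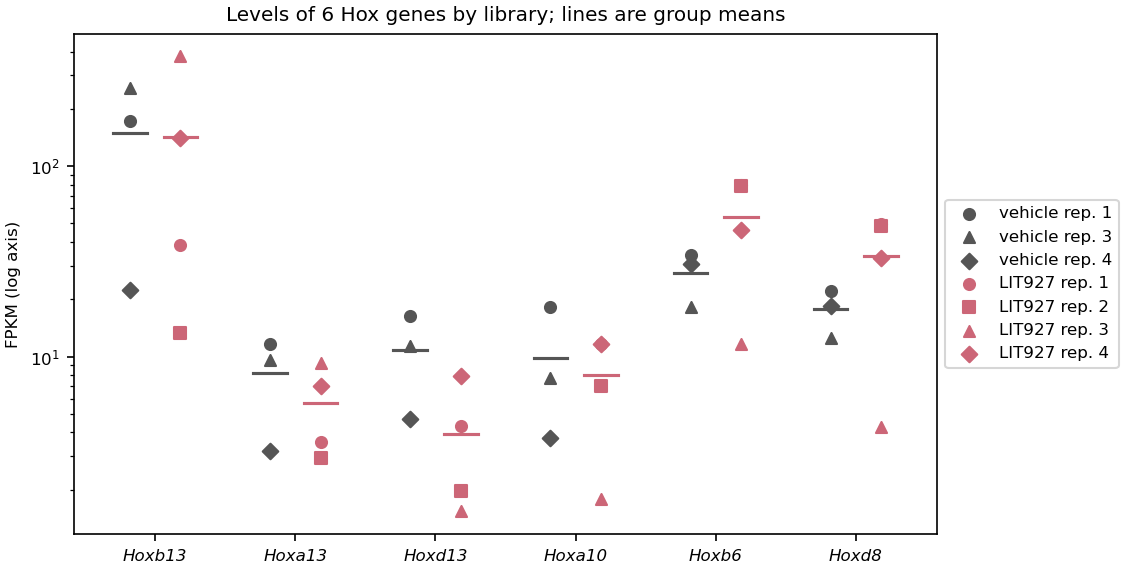
FPKM on a log axis of 6 Hox genes in the 3 vehicle (grey) and 4 LIT927 (red) libraries; symbols are replicate numbers and lines are group means. Hoxb13 runs from 13.3 to 377 FPKM within the LIT927 group, and for every gene shown the groups overlap.

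Paralogue groups 9 to 11 hold the genes that give identity to the ducts. Hoxa10 (chromosome 6, 52231197 to 52240854) was at 18.2, 7.71 and 3.74 FPKM in vehicle replicates 1, 3 and 4 and at 11.7, 7.04, 1.78 and 11.6 FPKM in LIT927 replicates 1 to 4. Its neighbour Hoxa11 (chromosome 6, 52242106 to 52245810) was at 15.02, 6.09 and 3.27 FPKM and at 12.6, 9.86, 1.91 and 10.6 FPKM in the same order. Both were highest in vehicle replicate 1 and lowest in LIT927 replicate 3, and their ratio stayed between 0.714 and 1.27. The differences were -0.26 (SE 0.65) and 0.10 (SE 0.64), and both turned sign when single libraries were left out: Hoxa10 without vehicle replicate 1 or LIT927 replicate 3, and Hoxa11 without vehicle replicate 4 or LIT927 replicate 1, 2 or 4. Reads of Hoxa11 cannot be told from those of the overlapping antisense transcript Hoxa11os if strand was not used in counting, which the sources used here do not state.

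Hoxa9 (chromosome 6, 52223100 to 52231089) was at 3.07, 1.67 and 0.720 FPKM with vehicle and at 1.82, 0.616, 0.135 and 2.49 FPKM with LIT927, where the 0.135 FPKM of replicate 3 rests on 14 fragments. Hoxd10 (chromosome 2, 74691924 to 74695105) was at 3.96, 1.18 and 0.935 FPKM with vehicle and at 1.90, 1.20, 0.201 and 1.84 FPKM with LIT927. Both were highest in vehicle replicate 1 and lowest in LIT927 replicate 3, and the groups overlapped. The genes on its 5′ side were lower still: Hoxd11 spanned 0.0629 to 2.54 FPKM and Hoxd12 0.134 to 1.84 FPKM, each highest in vehicle replicate 1. Along the Hoxd cluster the level thus dipped between Hoxd9 and Hoxd13 in every library, as the profile along the cluster shows.

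Hoxb9 and Hoxd9, of the same paralogue group, were far higher than Hoxa9. Hoxb9 (chromosome 11, 96271457 to 96276595) was at 41.7, 18.01 and 22.3 FPKM in vehicle replicates 1, 3 and 4 and at 39.5, 33.5, 7.01 and 46.8 FPKM in LIT927 replicates 1 to 4. The difference of 0.023 (SE 0.63) became -0.044 after median-of-ratios scaling. Hoxd9 (chromosome 2, 74697727 to 74700208) was at 10.1, 9.52 and 14.7 FPKM with vehicle and at 22.7, 26.5, 5.01 and 16.0 FPKM with LIT927. Within this paralogue group the means over 7 libraries ran from Hoxb9 (29.8 FPKM) over Hoxd9 (14.9 FPKM) and Hoxa9 (1.503 FPKM) to Hoxc9 (0.0169 FPKM). Hoxb9 exceeded Hoxa9 in 7 of 7 libraries.

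**Figure D3:**
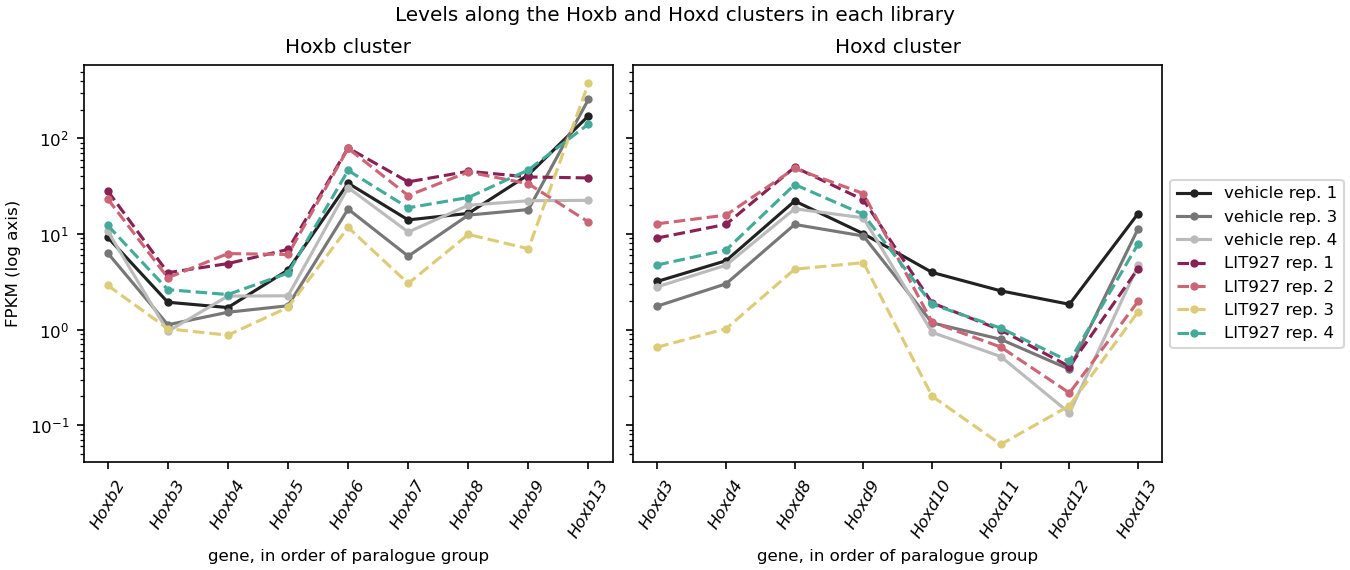
FPKM on a log axis along the Hoxb and Hoxd clusters, with genes in order of paralogue group and 1 line per library (solid, vehicle; dashed, LIT927). LIT927 replicate 3 is the lowest line at Hoxb9 (7.01 FPKM) and the highest at Hoxb13 (377 FPKM), and in the Hoxd cluster every line dips between Hoxd9 and Hoxd13.

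Paralogue groups 2 to 8 hold the genes used further toward the head, and among them the Hoxb and Hoxd members had the higher levels: all 10 genes of these groups with a mean of at least 1 FPKM lie in those clusters. Hoxb6 (chromosome 11, 96292476 to 96301569) was at 34.0, 18.2 and 30.6 FPKM in vehicle replicates 1, 3 and 4 and at 79.4, 78.5, 11.7 and 46.2 FPKM in LIT927 replicates 1 to 4. LIT927 replicates 1, 2 and 4 lay above every vehicle library and LIT927 replicate 3 below all of them. The difference was 0.68 (SE 0.64; 95% interval -0.82 to 2.17; limma adjusted p = 0.998), and it was 1.28 without LIT927 replicate 3, 0.39 without LIT927 replicate 1 or replicate 2 and 0.41 without vehicle replicate 3.

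Hoxd8 (chromosome 2, 74704615 to 74707933) was at 22.1, 12.6 and 18.3 FPKM with vehicle and at 49.98, 48.4, 4.28 and 32.9 FPKM with LIT927, a difference of 0.51 (SE 0.77). It was 1.27 without LIT927 replicate 3, 0.18 without LIT927 replicate 1, 0.20 without LIT927 replicate 2 and 0.29 without vehicle replicate 3. The ratio of Hoxb6 to Hoxd8, genes on different chromosomes, was 1.40 to 1.67 in 6 libraries and 2.73 in LIT927 replicate 3. Hoxb8 (chromosome 11, 96281905 to 96285315) was at 16.4, 15.8 and 19.97 FPKM with vehicle and at 45.2, 44.4, 9.89 and 24.1 FPKM with LIT927, a difference of 0.59 (SE 0.50). Hoxb7 (chromosome 11, 96286623 to 96290162) was at 14.0, 5.86 and 10.5 FPKM with vehicle and at 35.1, 25.2, 3.04 and 18.8 FPKM with LIT927.

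The same libraries were high and low for most of these genes. LIT927 replicates 1 and 2 were the highest pair for 11 of the 19 Hox genes with a mean of at least 1 FPKM: Hoxb2 to Hoxb8, Hoxd3, Hoxd4, Hoxd8 and Hoxd9. The same pair was highest for 11.9% of the 11060 genes of that level. LIT927 replicate 3 was the lowest library for 16 of the 19, and for 28.1% of the 11060 genes.

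The remaining members of these groups were lower. Hoxb2 (chromosome 11, 96350525 to 96354012) was at 9.23, 6.32 and 10.7 FPKM with vehicle and at 28.2, 23.3, 2.90 and 12.3 FPKM with LIT927. Hoxb3 was at 1.93, 1.12 and 0.957 FPKM with vehicle and at 3.94, 3.48, 1.02 and 2.62 FPKM with LIT927. It had the smallest unadjusted p among genes with a higher mean, at 0.63 (SE 0.35; limma unadjusted p = 0.110, adjusted p = 0.998). Hoxb4 was at 1.70, 1.52 and 2.24 FPKM with vehicle and at 4.90, 6.24, 0.874 and 2.32 FPKM with LIT927. Hoxb5 was at 4.196, 1.78 and 2.26 FPKM with vehicle and at 6.89, 6.10, 1.71 and 3.90 FPKM with LIT927. For all 4 of these Hoxb genes the groups overlapped, with LIT927 replicates 1 and 2 highest. Hoxd3 (chromosome 2, 74711927 to 74748442) was at 3.19, 1.76 and 2.80 FPKM with vehicle and at 9.08, 12.8, 0.655 and 4.74 FPKM with LIT927. Hoxd4 (chromosome 2, 74711929 to 74729160) was at 5.25, 3.01 and 4.72 FPKM and at 12.6, 15.8, 1.02 and 6.79 FPKM. Hoxd3 and Hoxd4 have overlapping exons on the same strand in GENCODE, so the split of fragments between them is uncertain. Hoxb2, Hoxb3, Hoxb5, Hoxd3 and Hoxd4 also overlap antisense transcripts.

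Shares within a library do not depend on how the library is scaled, so they compare the ends of the clusters directly. Of the summed Hox FPKM, group 13 (3 genes) made up 48.7%, 70.6% and 16.9% in vehicle replicates 1, 3 and 4 and 11.2%, 5.04%, 87.9% and 38.8% in LIT927 replicates 1 to 4. Groups 2 to 8 (18 genes) made up 27.6%, 17.6% and 57.4% with vehicle and 66.6%, 73.0%, 8.43% and 38.6% with LIT927. Groups 9 to 12 (11 genes) stayed between 22.0% and 25.8% in 5 libraries and were at 11.9% and 3.70% in vehicle replicate 3 and LIT927 replicate 3. The mean share of group 13 was 45.4% ± 27.0 (SD, n = 3) with vehicle and 35.7% ± 37.7 (SD, n = 4) with LIT927, so the difference of -9.66 percentage points lay inside the spread of either group. It rested on single libraries: it was -27.0 points without LIT927 replicate 3, -23.9 without vehicle replicate 4, -1.49 without LIT927 replicate 1, 0.574 without LIT927 replicate 2 and 2.93 without vehicle replicate 3. The summed Hox FPKM itself was 362 to 441 in the 4 LIT927 libraries, and 411, 393 and 180.0 in vehicle replicates 1, 3 and 4. Vehicle replicate 4 was the lowest library for 62.6% of the 11060 genes with a mean of at least 1 FPKM, with a median-of-ratios factor of 0.665. After that scaling the Hox sums were 314, 364 and 271 with vehicle and 364, 357, 542 and 348 with LIT927.

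The ratio of Hoxb13 to Hoxb6, which lie in the same cluster, sets the 5′ end against the middle. It was 5.06, 14.1 and 0.735 in vehicle replicates 1, 3 and 4 and 0.485, 0.170, 32.2 and 3.06 in LIT927 replicates 1 to 4, a span of 189-fold. Libraries of both groups lay on both sides of 1. The ratio of Hoxd13 to Hoxd8 spanned 22.2-fold, from 0.0408 in LIT927 replicate 2 to 0.904 in vehicle replicate 3, and was not highest in LIT927 replicate 3 (0.359).

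**Figure D4:**
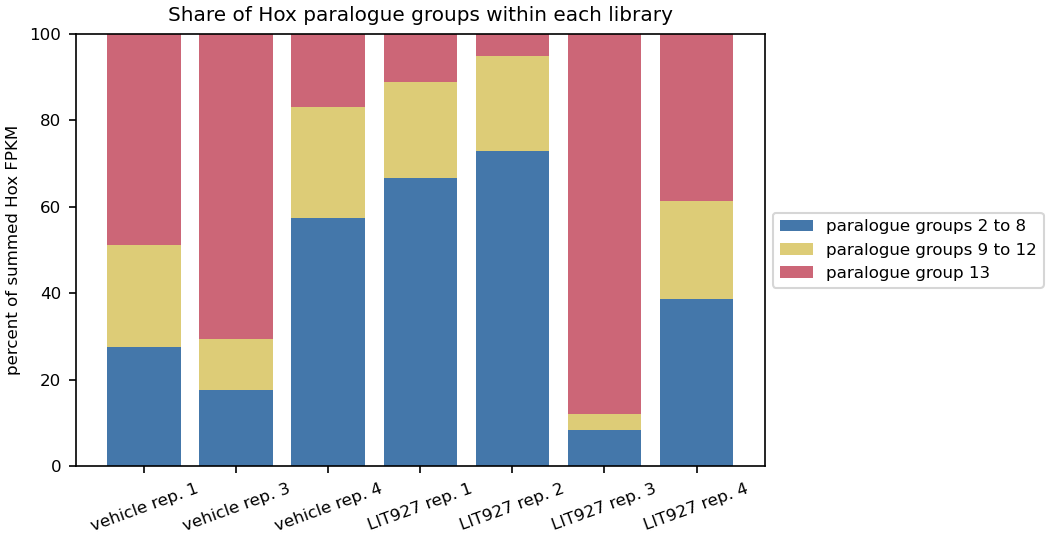
Stacked bars of the percent of summed Hox FPKM held by paralogue groups 2 to 8, 9 to 12 and 13 in each library. Group 13 runs from 5.04% in LIT927 replicate 2 to 87.9% in LIT927 replicate 3, and both treatment groups hold libraries with high and with low shares.

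Some markers of the sampled tissue moved with these shares in some libraries, and their part in the Hox values was not tested. Vehicle replicate 3 and LIT927 replicate 3, with the highest group 13 shares, also held the highest urothelial sums and the highest sums of prostate lobe genes (74175 and 165927 FPKM, against at most 20466 FPKM elsewhere). Sbp, a secreted protein of the ventral lobe and the largest part of that sum, was at 53139 and 114916 FPKM there, but also at 5316 FPKM in LIT927 replicate 2, the library with the lowest Hoxb13. That same pair of libraries had the lowest vas deferens sums. LIT927 replicates 1 and 2, where groups 2 to 8 were highest, held the highest vas deferens sums (20193 and 10656 FPKM). Vehicle replicate 4 went otherwise, with 57.4% in groups 2 to 8 and a vas deferens sum of 2000 FPKM. Vehicle replicate 1 had 27.6% and 9619 FPKM. Seminal vesicle sums were highest in vehicle replicate 4 (563781 FPKM) and lowest in vehicle replicate 1 (51017 FPKM), and did not rank as the group 13 shares did. Smooth muscle genes summed to 854 FPKM in LIT927 replicate 3, where most Hox genes were lowest, and to 2734 to 9971 FPKM elsewhere, and fibroblast genes to 68.5 FPKM there and 86.1 to 470 FPKM elsewhere.

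Between treatments, 14 of the 32 Hox genes had a higher and 18 a lower mean log2(FPKM + 1) with LIT927, where 55.5% of all 16019 genes were higher and 44.5% lower. The median difference over the 32 genes was -0.034, against 0.024 over all genes. In limma 0 Hox genes passed a Benjamini-Hochberg adjusted p of 0.05, as did 0% of all genes. At an unadjusted p under 0.05 there were 2, Hoxd13 and Hoxc10, both lower, against 2.96% of all genes lower and 0.718% higher. Limma-voom on whole fragments gave 0 Hox genes at the adjusted and 2 at the unadjusted threshold. Of all genes in that fit, 0 passed the adjusted and 2.95% the unadjusted threshold. For 0 of the 32 did the groups separate without overlap, which 2.12% of all genes did with LIT927 lower and 1.08% with LIT927 higher.

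By position along the cluster, 11 of all 18 genes of groups 2 to 8 had a higher mean, 3 of 11 in groups 9 to 12, and 0 of 3 in group 13. Among genes with a mean of at least 1 FPKM the counts were 10 of 10, 3 of 6 and 0 of 3, and a relation to position was not tested. Vas deferens and epididymis markers had a higher mean in 7 of 8 genes and prostate lobe markers in 0 of 7, and their part in these counts was not tested. No member of any paralogue group passed the test. Without LIT927 replicate 3, 11 of the 32 Hox genes had an unadjusted p under 0.05 in limma, all higher, where 7.55% of all genes passed that threshold and 5.16% did so as higher. The smallest adjusted p of a Hox gene was then 0.370. Without vehicle replicate 4, by contrast, 6 of the 32 had an unadjusted p under 0.05 in limma, 0 of them higher. Of all genes 8.33% passed in that fit, 0.306% as higher, and the smallest limma adjusted p of a Hox gene was 0.171.

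**Figure D5:**
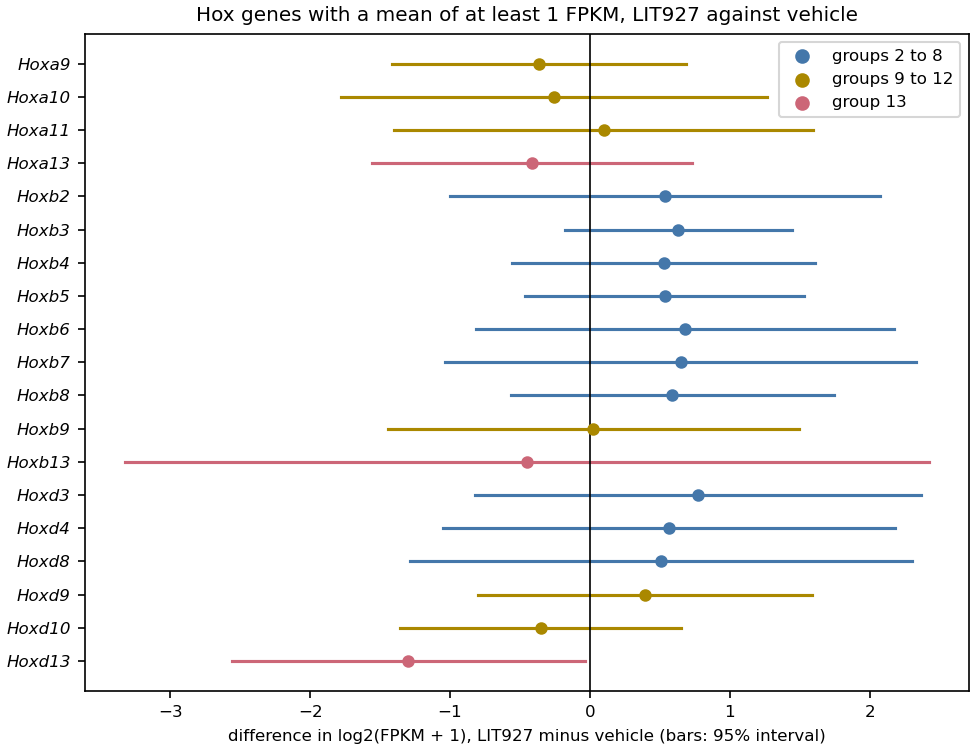
Differences in log2(FPKM + 1), LIT927 minus vehicle, with 95% intervals from limma, for the 19 Hox genes with a mean of at least 1 FPKM (blue, paralogue groups 2 to 8; yellow, 9 to 12; red, 13). Only the interval of Hoxd13 (-2.56 to -0.038) leaves out 0, before adjustment over all genes.

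The Hoxc cluster and the 3′ Hoxa genes were at the edge of detection. Hoxc10, known from the hindlimb and the lumbar body, was at 0.636 and 1.02 FPKM in vehicle replicates 1 and 3, or 41 and 66 fragments. It was at 0 in vehicle replicate 4, and at 0.0320, 0, 0.0326 and 0.0599 FPKM in LIT927 replicates 1 to 4, at most 4 fragments each. The difference was -0.53 (SE 0.21; limma unadjusted p = 0.0355, adjusted p = 0.998; exact permutation p = 0.143), and with vehicle replicate 4 at 0 the groups overlapped. Hoxc4 rested on 12 and 9 fragments in vehicle replicates 1 and 3 and on at most 1 in each other library. Skeletal muscle genes of the marker list summed to 1042 and 1215 FPKM in vehicle replicates 1 and 3, where Hoxc10 was highest, and to 101 to 704 FPKM elsewhere. In vehicle replicate 1, 863 FPKM of that sum came from Acta1 alone. The mean log2(FPKM + 1) of the list was 6.37 in vehicle replicate 3, but 3.54 in vehicle replicate 1, near the 1.87 to 3.49 elsewhere. The part of skeletal muscle in the Hoxc10 values was not tested. Hoxa5, Hoxa6 and Hoxa7 reached 0.411, 0.369 and 0.560 FPKM at most.

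Hox proteins bind DNA together with partners of the TALE homeodomain class. All 11 TALE genes of the list were measured, 3 with a higher and 8 with a lower mean, and 0 passed in limma at either threshold. Pbx2 was at 8.599 to 16.3 FPKM, Meis1 at 3.20 to 12.1 and Meis2 at 0.562 to 8.01 FPKM. Pbx2 spanned 1.89-fold and Meis1 3.78-fold between libraries. Meis2 was lowest in LIT927 replicate 3, as most Hox genes were.

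Evx2, a homeobox gene on the far side of Hoxd13, was 1 of 2 measured genes on a list of 10 relatives and neighbours of the clusters. It was at 1.03, 0.670 and 0.239 FPKM with vehicle and at 0.0315, 0.00631, 0.0449 and 0.384 FPKM with LIT927. The values of LIT927 replicates 1 to 3 rest on 5, 1 and 7 fragments, at the edge of detection. LIT927 replicate 4 lay above vehicle replicate 4, as for Hoxd13, so the groups overlapped. The difference was -0.54 (SE 0.18; limma unadjusted p = 0.0180, adjusted p = 0.998; exact permutation p = 0.0857). Evx1, beside Hoxa13, reached 0.880 FPKM in vehicle replicate 3 and 0.755 FPKM in LIT927 replicate 3, and was at most 0.0617 FPKM elsewhere.

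Polycomb and Trithorax proteins keep Hox genes silent or active. Of 22 Polycomb repressor genes, 19 had a higher and 3 a lower mean, with a median difference of 0.14, and 0 passed at either threshold in limma. The mean log2(FPKM + 1) of the list was 2.49 in vehicle replicate 4, the lowest library for most genes, 3.24 and 3.09 in vehicle replicates 1 and 3 and 3.01 to 3.13 with LIT927. The part of that library in this count was not tested. Rbbp7, a histone-binding subunit, was at 103 ± 39 FPKM (SD, n = 3) with vehicle and 96.7 ± 25.4 FPKM (SD, n = 4) with LIT927. Eed, a core subunit that reads the repressive mark, was at 10.9 ± 3.4 and 11.7 ± 1.2 FPKM. Of 11 Trithorax and demethylase genes, 7 had a higher and 4 a lower mean, with 0 past either threshold in limma. Men1, the menin subunit of an activating methyltransferase complex, was at 18.2 ± 3.1 FPKM with vehicle and 15.9 ± 1.7 FPKM with LIT927.

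Retinoic acid, a vitamin A derivative that switches on 3′ Hox genes in the embryo, was followed by 17 measured genes, 8 higher and 9 lower. In limma 0 were past the adjusted threshold. At an unadjusted limma p under 0.05 there was 1, Stra6, against 3.68% of all genes. Crabp1, a cytosolic retinoic acid binding protein, reached 89.0 FPKM in vehicle replicate 3 and 290.2 FPKM in LIT927 replicate 3, and was at most 5.84 FPKM elsewhere. Aldh1a1, which makes retinoic acid, spanned 24.1 to 69.7 FPKM. Stra6, the retinol uptake receptor, was at 2.25 ± 1.08 FPKM (SD, n = 3) with vehicle and 0.759 ± 0.492 FPKM (SD, n = 4) with LIT927.

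Other regulators place and shape the urogenital ducts. Of 12 measured Wolffian duct genes 4 were higher and 8 lower, and 0 passed in limma. At an unadjusted limma p under 0.05 there was 1, Gdf7, against 3.68% of all genes. Emx2, needed for the urogenital ducts to form, was at 22.2, 3.64 and 13.8 FPKM with vehicle and at 64.3, 71.2, 0.534 and 35.0 FPKM with LIT927. Pax8, a nephric duct factor, had 0.230 FPKM in vehicle replicate 3, 0.133 FPKM in LIT927 replicate 3 and 3.34 to 36.9 FPKM elsewhere. Both were thus lowest in the pair with the highest Hoxb13.

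Of 12 measured urogenital sinus and prostate bud genes 2 were higher and 10 lower, with 0 past either threshold in limma. Foxa1, a pioneer factor of prostate epithelium, was at 26.1, 45.8 and 6.49 FPKM with vehicle and at 9.41, 4.99, 61.7 and 22.4 FPKM with LIT927. LIT927 replicate 3 and vehicle replicate 3 were highest, as for Hoxb13, and the groups overlapped.

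Of 17 mesenchyme regulators 3 were higher and 14 lower, with 0 past the adjusted threshold in limma and 2, Isl1 and Hand2, at an unadjusted p under 0.05, as were 3.68% of all genes. Stromal markers had lower means too, in 7 of 7 fibroblast genes (median difference -0.96), 7 of 7 smooth muscle genes (-0.84) and 6 of 6 endothelial genes (-0.81), and their part in this count was not tested. Isl1, a factor of bladder and genital mesenchyme, was at 6.78, 4.51 and 1.40 FPKM with vehicle and at 0.363, 0.0969, 0.826 and 1.93 FPKM with LIT927 (difference -1.48, SE 0.48; exact permutation p = 0.0857; limma adjusted p = 0.998). Hand2 was at 10.8, 5.22 and 3.14 FPKM with vehicle and at 1.64, 1.40, 0.822 and 3.66 FPKM with LIT927. For both genes, as for Hoxd13, LIT927 replicate 4 lay above vehicle replicate 4 and the other LIT927 libraries below every vehicle library. Of the 4 most abundant genes of the list, Tbx2 spanned 8.30-fold and was highest in LIT927 replicates 1 and 2, Bmp7 spanned 8.37-fold, Tcf21 12.7-fold and Tbx3 1.29-fold.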

How the data were processed

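Total RNA of 7 mouse prostate samples was sequenced. Per the submitters' processing notes, fastp, HISAT2 and HTSeq were among the tools and mm10 was the build. Settings, annotation and strand use were not given in the sources for this work. The authors deposited 1 expression value per gene, taken here as FPKM. No header names that unit; it rests on low values being whole multiples of a step set by gene and library. Those steps gave the library totals as whole numbers and whole fragments, within 0.05 fragments, for 16017 of 16019 genes. They also gave the gene lengths behind the FPKM. For 28 of the 32 Hox genes these differ from the GENCODE M21 exon length, by factors of 0.453 to 2.58, so ratios between genes rest on the authors' lengths.

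Differences were fitted on log2(FPKM + 1) with limma (version 3.58.1, under R 4.3.3), over all 16019 genes with a mean-variance trend, no filter and no covariate, Benjamini-Hochberg adjusted over all genes. This scale understates changes of low genes. Permutation tests are exact and two-sided over 35 divisions of the libraries. The code was tested on simulated data. Also run were limma-voom on the recovered fragments, a replicate block, 2 scalings, fits without single libraries, a 0.1 pseudocount and a filter asking for 1 FPKM in 3 libraries. Figures were drawn with matplotlib 3.10.9 in Python 3.11.15.

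The Hox genes and all gene lists were chosen with earlier results of these data known. Hox genes with a mean of at least 1 FPKM are given by library, the others by range, with the 3 smallest p in each direction. Of other lists up to 4 genes with the highest mean are named, and of marker lists up to 2. Stra6, Gdf7, Isl1, Hand2, Pax2, Meis3, Defb42, Lum, Cnn1, Rxrg and Crabp2 were named after their values were seen. Some genes of these lists are not reported here. None of the 12 listed transcripts antisense to or between Hox genes is in the files.

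No gene had an identical value above 0 in any pair of libraries. The longest identical stretch between transcripts of 2 Hox genes that do not overlap was 52 bases, in Hoxa6 and Hoxb4.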

Additional observations from a re-analysis of the deposited data

How the results depend on the processing

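With limma, 0 Hox genes passed in each of the alternatives, where the smallest adjusted p was 0.171 (Hoxc10 without vehicle replicate 4). The median difference over Hox genes, -0.034, became 0.51 with a minimum of 1 FPKM in 3 libraries, which leaves 19 of them to test. It was -0.46 with voom on recovered fragments, -0.24 with a pseudocount of 0.1, and -0.081 to 0.037 when single libraries were left out, highest without vehicle replicate 1. As a mean of log2(FPKM + 1), group 13 minus the other Hox genes differed by -0.84 between treatments. The replicate block, in which LIT927 replicate 2 has no partner and drops out of the estimate, gave differences of -0.025 for Hoxa11, -0.095 for Hoxb9 and 0.34 for Hoxb13, each of the other sign than without it. The replicate numbers were not used as a pairing in the main fit. The deviations of same-numbered libraries from their group means correlated at 0.565, 0.700 and -0.238 for numbers 1, 3 and 4. The LIT927 library that correlated best with vehicle replicates 1, 3 and 4 was replicate 4, 3 and 2. These mixed values do not settle whether the numbers mark pairs. Hoxb9 was at -0.044 and -0.085 after median-of-ratios and upper-quartile scaling, and Hoxa10 at 0.19 without both libraries numbered 3. Leaving out single libraries gave -0.74 to 0.27 for Hoxa10, -0.34 to 0.61 for Hoxa11, -0.25 to 0.61 for Hoxb9, -1.51 to 0.34 for Hoxb13 and -0.61 to 0.073 for Hoxd10. The other 16 of 21 named members kept their sign in every alternative run. Leaving out single libraries moved 19 of the 21 by over 1.5 times or turned their sign, all but Hoxb3 and Hoxd13. With GENCODE exon lengths Hoxb13 still led in 4 libraries and group 13 held 3.59% to 82.3%. This and the scaled Hox sums were chosen after seeing the data. Depth of 14 fragments or fewer limits Hoxa9 in LIT927 replicate 3, Evx2 in LIT927 replicates 1 to 3 and most Hoxc values.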

Other observations

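The order of the 7 libraries was compared between each Hox gene and the 11060 genes with a mean of at least 1 FPKM, after values were seen. Hoxb13 shared its order with 25 other genes (0.226%), among them Foxa1 and the TALE partner Meis3 of the gene lists. Hoxb6, Hoxb7 and Hoxd8 had one order in common, shared with 43 genes each, among them Pax2 and the epididymal genes Crisp1 and Defb42. Hoxd3 and Hoxd4 shared theirs with 106 genes each (0.958%), among them Emx2. For Hoxb4 and Hoxd9 it was 58 genes each (0.524%), among them Tbx2 and Crabp2. Hoxd13 shared its order with 37 genes (0.335%), among them Hand2. The fibroblast gene Lum had the order of Hoxa11 and Hoxd10, each of which shared it with 135 genes (1.22%). Emcn and Tcf21 were among 94 genes (0.850%) with that of Hoxa10. The smooth muscle genes Actg2 and Cnn1 were among 49 (0.443%) with that of Hoxa9. No other gene of the fibroblast (7 genes), smooth muscle (7 genes) or endothelial (6 genes) marker lists shared an order with these Hox genes. After median-of-ratios scaling Hand2 kept the order of Hoxd13, Defb42 that of Hoxd8, Lum that of Hoxa11 and Hoxd4 that of Hoxd3. Foxa1, Meis3, Pax2, Emx2, Tbx2, Emcn, Tcf21, Actg2 and Cnn1 no longer matched exactly. Nor did Hoxb6, Hoxb7 and Hoxd8 then share an order, or Hoxb4 and Hoxd9, or Hoxa11 and Hoxd10. An equal order is a description of the same 7 libraries, whose tissue make-up varied within both groups. The part of make-up and depth in these orders was not tested.

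Rxrg, a retinoid X receptor gene, reached 5.81 FPKM in vehicle replicate 3 and 12.5 FPKM in LIT927 replicate 3 and was at most 0.416 FPKM elsewhere. Crabp2, the paralogue of Crabp1, went the other way, with 1.54 and 0.692 FPKM in that pair and 4.98 to 35.8 FPKM in the other libraries.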
